A study of Homo sapiens with 6 samples.

Results

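The genes described here handle iron inside the cell. FTH1 and FTL store it, NCOA4 releases it, TFRC and SLC11A2 bring it in, HMOX1 and BLVRB break down heme, and IREB2 and ACO1 sense it. They are 9 of the 16910 genes in the deposited table, taken by gene symbol, and all 9 passed the filter on low counts. The 9 were chosen with their levels and changes in these same libraries already known. Their values are therefore given as a description, with no p-value printed. Where 1 of the 9 is said to pass the threshold (adjusted p below 0.05) or not, the call is also only descriptive. Such a call is no independent support for a difference, and neither is a call kept under other processing. The libraries are 6 RNA-seq libraries of TOV21G, an established line from an ovarian clear cell carcinoma, in 3 groups of 2. The siGYS1 libraries carry the genotype label GYS1 knock down, the sip53 libraries the label p53 knock down, and the NC libraries the label WT. The labels do not say what NC stands for and give no siRNA sequence; it is taken as the control transfection on the strength of the sample titles. GYS1 is the muscle-type glycogen synthase, and the series asks what it does in this line. The labels give no time after transfection, name 1 cell line as the source of every library and do not say whether replicates were separate cultures. Every p-value therefore measures only the spread between these libraries, which may be technical. With 2 libraries a group, groups can fail to overlap at a very small difference. The share of all genes whose groups do not overlap was not counted, so statements on overlap are description only.

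Cells hold most spare iron in ferritin, a shell built of heavy (FTH1) and light (FTL) chains. When iron is scarce, the iron regulatory proteins, ACO1 without its iron-sulfur cluster (IRP1) and IREB2 (IRP2), bind a stem-loop called the iron-responsive element. On the 5′ UTR of a ferritin mRNA this binding blocks translation, and on the 3′ UTR of the TFRC mRNA it protects the message from decay. The ferritin genes and HMOX1 are also known targets of the transcription factor NRF2, and BACH1 is a heme-binding repressor of HMOX1.

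The stem-loops of the ferritin and transferrin receptor transcripts were read from the GENCODE 29 transcripts of GRCh38 and are shown because they are the control sites through which the iron regulatory proteins act on these mRNAs. The search took a C, any 5 bases and the loop CAGTGN, followed by 5 bases that pair with the 5 before the loop, G-T pairs allowed. It found a match in a UTR of 3 of the 9 genes. An element with an unpaired base in that stem, or with another loop, is missed by this search. A gene without a match may therefore still hold an element, and a gene with matches may hold more. Capitals mark the CAGTG of the loop in each 27-base stretch.
FTH1, 5′ UTR, chr11:61967575-61967601, minus strand: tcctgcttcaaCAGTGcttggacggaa
FTL, 5′ UTR, chr19:48965336-48965362, plus strand: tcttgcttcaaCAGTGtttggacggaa
TFRC, 3′ UTR, chr3:196050980-196051006, minus strand: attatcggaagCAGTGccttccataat
TFRC, 3′ UTR, chr3:196050576-196050602, minus strand: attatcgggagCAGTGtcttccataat
TFRC, 3′ UTR, chr3:196050511-196050537, minus strand: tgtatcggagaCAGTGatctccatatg
TFRC, 3′ UTR, chr3:196050464-196050490, minus strand: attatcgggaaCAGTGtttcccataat
The ferritin transcripts hold 1 match each and TFRC holds 4. Below the unpaired C, 4 of 5 positions pair in FTH1 and FTL and 5 of 5 in each TFRC stretch. A match in a UTR was found for 139 of the 13071 tested protein-coding genes with a transcript, or 1.06%. With G-T pairs not allowed, the search keeps TFRC alone among the 9, and 0.314% of these genes.

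Facts of all libraries come first, because 2 libraries stood apart. Read counts per library sum to between 17425000 and 18097337. GYS1 was at 1.69 and 1.67 FPKM in the siGYS1 libraries, 30.4 and 31.4 FPKM in the sip53 libraries and 28.6 and 27.3 FPKM in the NC libraries. FPKM, the authors' values, are fragment counts scaled to transcript length and library depth. Deviations of log2 CPM (counts scaled to library depth) from the 6-library average went with exon length in siGYS1 replicate 1 (Spearman rho 0.41 across 11172 genes) and against it in NC replicate 2 (rho -0.29). In the other 4 libraries rho lay between -0.08 and 0.04. Among defining markers, the epithelial and Müllerian gene PAX8 was read in every library, while the clear cell genes NAPSA and GPX3 stayed below 1 FPKM. The 8 clear cell markers summed to 2941 and 3221 FPKM with siGYS1, 1115 and 957 FPKM with sip53 and 3702 and 3890 FPKM with NC. The 7 epithelial markers summed to between 435 and 609 FPKM. Of 10 erythroid markers 2 are in the table, and they summed to at most 0.18 FPKM. The 7 macrophage and leukocyte markers in the table summed to between 5.41 and 7.55 FPKM, the endothelial ones to at most 1.93 FPKM, and the fibroblast ones to 155 and 145 FPKM with siGYS1, 92.6 and 93.0 FPKM with sip53 and 178 and 177 FPKM with NC. Most of the fibroblast sum was COL1A2, at 140 and 133 FPKM with siGYS1, 79.0 and 81.9 FPKM with sip53 and 163 and 155 FPKM with NC. The fibroblast genes LUM, PDGFRA and PDGFRB stayed below 1 FPKM in every library. The part of these marker differences in the results below was not tested.

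Ferritin heavy chain was among the most abundant transcripts in every library and was higher in both knockdowns. FTH1 (ENSG00000167996, GRCh38 chr11:61959718-61967660, minus strand) encodes the chain that oxidises iron as it enters the shell. It was at 20368 and 24913 FPKM with siGYS1, 25255 and 25919 FPKM with sip53, and 11908 and 13031 FPKM with NC. All 4 knockdown libraries lay above both NC libraries. The means were 22640.2 ± 3214 FPKM with siGYS1, 25587 ± 469.7 FPKM with sip53 and 12469 ± 794 FPKM with NC (SD, n = 2 each). FTH1 took 1.07% and 1.31% of all reads with siGYS1, 1.36% and 1.36% with sip53, and 0.643% and 0.702% with NC. By FPKM it ranked 2 among all genes in all 4 knockdown libraries, and 5 and 6 in the NC libraries. In the edgeR fit FTH1 was 1.84-fold higher with siGYS1 than with NC (log2 fold change 0.88, SE 0.10) and 2.16-fold higher with sip53 than with NC (1.11, SE 0.10). Both siGYS1 libraries lay below both sip53 libraries, at a log2 fold change of -0.23 (SE 0.10) that did not pass the threshold and that passed without siGYS1 replicate 2, at -0.39. Leaving out 1 library moved the siGYS1 value against NC between 0.75 and 1.02 with the call kept, while limma on log2(FPKM + 1) gave 0.85 and did not pass. In bulk RNA, less or more mRNA per cell and a change in the share of cells that make it cannot be told apart.

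**Figure D1:**
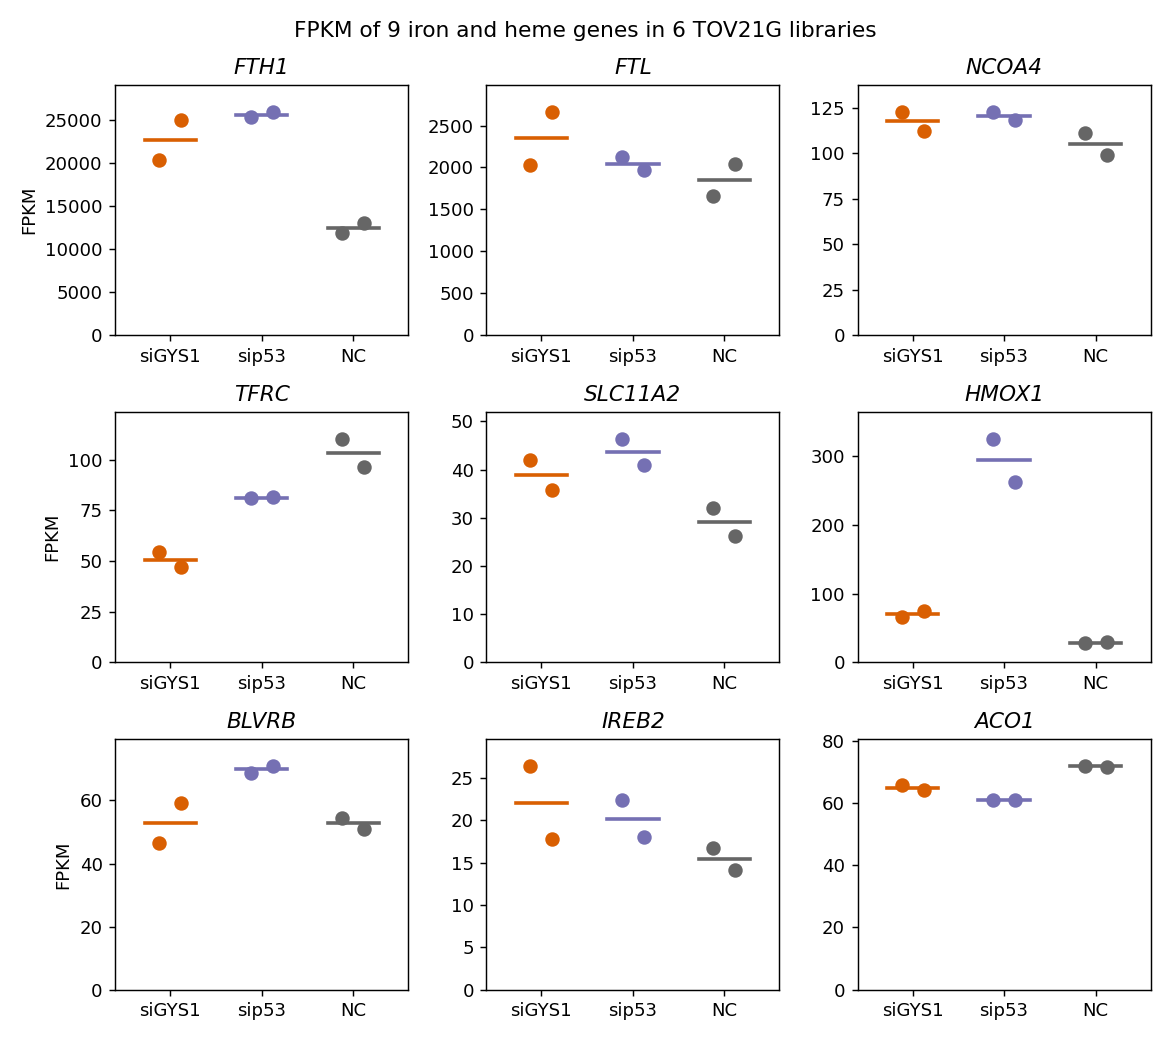
FPKM (y axis, each panel from 0) of the 9 iron and heme genes in siGYS1, sip53 and NC libraries, with 1 point per library and a bar at the mean of the 2 libraries of a group. FTH1 and HMOX1 have both knockdowns above both NC libraries and TFRC has both knockdowns below them, with HMOX1 at 324 and 262 FPKM under sip53.

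Ferritin light chain was below the threshold in the 3 comparisons as fitted, and its call depended on the processing. FTL (ENSG00000087086, chr19:48965301-48966878, plus strand) encodes the chain that helps iron mineralise inside the shell. It was at 2035 and 2664 FPKM with siGYS1, 2124 and 1965 FPKM with sip53 and 1664 and 2037 FPKM with NC. By FPKM these groups overlapped, while by CPM both knockdowns lay above NC, at 1208 and 1584 CPM with siGYS1, 1278 and 1204 CPM with sip53 and 935 and 1144 CPM with NC. The log2 fold changes against NC, 0.43 (SE 0.13) with siGYS1 and 0.26 (SE 0.13) with sip53, did not pass the threshold. The siGYS1 value ran from 0.23 to 0.61 when 1 library was left out, and it passed without siGYS1 replicate 1 (0.61) or NC replicate 2 (0.58), the libraries in which level went with transcript length or against it. In all it passed in 6 of 15 alternatives, among them DESeq2 (0.44) and length-corrected offsets (0.56). The sip53 value passed in 5 of 15, among them the fits without either siGYS1 library. Within a library, FTH1 was 10.01 and 9.35 times FTL with siGYS1, 11.9 and 13.2 times with sip53 and 7.16 and 6.40 times with NC, so the ratio did not overlap between any of the groups. Together FTH1 and FTL made up 3.09% and 3.55% of the FPKM sum with siGYS1, 3.54% and 3.61% with sip53 and 1.79% and 1.85% with NC.

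NCOA4 (ENSG00000266412, chr10:46005088-46030714, minus strand), the receptor that carries ferritin to the lysosome for breakdown, had smaller changes than FTH1. It was at 123 and 113 FPKM with siGYS1, 123 and 118 FPKM with sip53 and 111 and 99.0 FPKM with NC. Both knockdowns lay above both NC libraries. The log2 fold change was 0.22 (SE 0.09) for siGYS1 against NC, which did not pass, and 0.30 (SE 0.09) for sip53 against NC, which passed. The sip53 call was lost without sip53 replicate 1, sip53 replicate 2 or NC replicate 2, over a range of 0.22 to 0.37. The siGYS1 value passed in 3 of 15 alternatives, among them the fit without siGYS1 replicate 2, at 0.30.

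Among the uptake genes, the transferrin receptor was lower with siGYS1 and the divalent metal transporter was higher in both knockdowns. TFRC (ENSG00000072274, chr3:196027183-196082189, minus strand) encodes the receptor that takes up iron-loaded transferrin. It was at 54.7 and 46.9 FPKM with siGYS1, 81.0 and 81.4 FPKM with sip53 and 110 and 96.2 FPKM with NC. The 3 groups did not overlap, with siGYS1 lowest and NC highest, at means of 50.8 ± 5.54, 81.2 ± 0.304 and 103 ± 9.90 FPKM for siGYS1, sip53 and NC (SD, n = 2 each). TFRC with siGYS1 was 51.3% of NC (log2 fold change -0.96, SE 0.11) and 60.7% of sip53 (-0.72, SE 0.11). These 2 differences kept their side of the threshold under all 15 alternatives, and leaving out 1 library moved them between -1.09 and -0.83 against NC and between -0.85 and -0.60 against sip53. With sip53, TFRC was 84.5% of NC (-0.24, SE 0.10), which did not pass as fitted. It passed in 7 of 15 alternatives, among them the fits without siGYS1 replicate 1 or siGYS1 replicate 2 and limma on log2(FPKM + 1), at -0.34. The 4 stem-loop matches shown above lie in the 3′ UTR of this transcript.

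SLC11A2 (ENSG00000110911, chr12:50979401-51028566, minus strand) encodes DMT1, which moves ferrous iron out of the endosome after transferrin uptake. It was at 42.1 and 35.9 FPKM with siGYS1, 46.4 and 40.9 FPKM with sip53 and 32.1 and 26.1 FPKM with NC. Both knockdowns lay above both NC libraries. By FPKM siGYS1 overlapped sip53, while by CPM it lay below, at 129.6 and 114.3 CPM against 146.5 and 139.4 CPM with sip53. The log2 fold change was 0.51 (SE 0.10) for siGYS1 against NC and 0.74 (SE 0.10) for sip53 against NC, and both passed. The siGYS1 call was lost without NC replicate 2, at 0.42, and with limma on log2(FPKM + 1), at 0.41. Between siGYS1 and sip53 the log2 fold change was -0.23 (SE 0.10), which did not pass and which passed without siGYS1 replicate 1, at -0.32. Within a library SLC11A2 was 0.770 and 0.766 times TFRC with siGYS1, 0.573 and 0.502 times with sip53, and 0.292 and 0.272 times with NC. FTH1 was 372 and 532 times TFRC with siGYS1, 312 and 318 times with sip53, and 108 and 135 times with NC. In both knockdowns the balance of ferritin heavy chain mRNA over transferrin receptor mRNA was thus above both NC libraries.

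**Figure D2:**
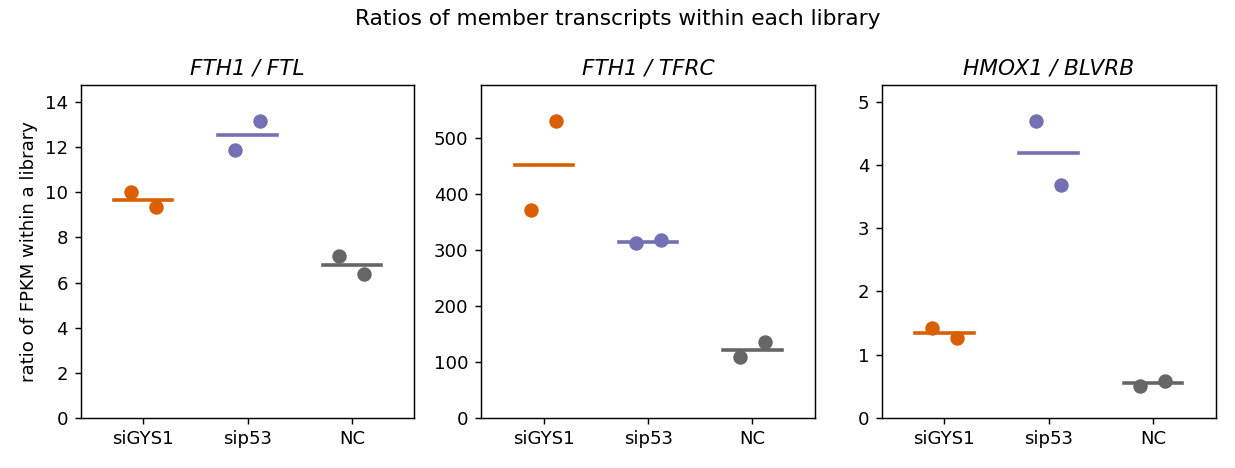
Ratio of FPKM within a library (y axis, each panel from 0) of FTH1 to FTL, FTH1 to TFRC and HMOX1 to BLVRB, with 1 point per library and a bar at the group mean. The siGYS1 and sip53 libraries lie above the NC libraries in all 3 panels, and sip53 is highest for FTH1 to FTL (11.9 and 13.2) and for HMOX1 to BLVRB (4.71 and 3.69).

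Heme oxygenase 1 differed most among the 9 genes in both comparisons with NC. HMOX1 (ENSG00000100292, chr22:35380361-35394214, plus strand) encodes the inducible enzyme that opens heme and frees its iron, with biliverdin and carbon monoxide as the other products. It was at 65.9 and 74.6 FPKM with siGYS1, 324 and 262 FPKM with sip53 and 27.7 and 29.7 FPKM with NC. The 3 groups did not overlap, with sip53 highest, at means of 70.3 ± 6.19, 293 ± 44.1 and 28.7 ± 1.41 FPKM for siGYS1, sip53 and NC (SD, n = 2 each). HMOX1 was 2.61-fold higher with siGYS1 than with NC (log2 fold change 1.38, SE 0.12) and 11.2-fold higher with sip53 than with NC (3.48, SE 0.13). With siGYS1 it was 23.4% of sip53 (-2.10, SE 0.12). All 3 differences kept their side of the threshold under all 15 alternatives. By FPKM HMOX1 ranked 1465 and 1341 among all genes with siGYS1, 294 and 356 with sip53 and 3652 and 3413 with NC.

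HMOX2 encodes the constitutive heme oxygenase. HMOX1 was 2.65 and 2.33 times HMOX2 with siGYS1, 6.49 and 5.40 times with sip53 and 0.971 and 0.921 times with NC. HMOX1 mRNA was thus below HMOX2 mRNA in both NC libraries and above it in all 4 knockdown libraries. BLVRB (ENSG00000090013, chr19:40447765-40465840, minus strand) encodes a flavin reductase that also reduces biliverdin. It was at 46.6 and 59.3 FPKM with siGYS1, 68.9 and 70.9 FPKM with sip53 and 54.5 and 50.9 FPKM with NC. Both NC libraries lay between the 2 siGYS1 libraries, and sip53 lay above both groups. The log2 fold change was 0.09 (SE 0.12) for siGYS1 against NC, which did not pass, 0.52 (SE 0.12) for sip53 against NC and -0.43 (SE 0.12) for siGYS1 against sip53, which both passed. The sip53 call against NC was lost without sip53 replicate 2, at 0.48. The call between siGYS1 and sip53 was lost without siGYS1 replicate 1, sip53 replicate 1 or sip53 replicate 2, over a range of -0.63 to -0.26. HMOX1 was 1.41 and 1.26 times BLVRB with siGYS1, 4.71 and 3.69 times with sip53 and 0.508 and 0.583 times with NC.

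Of the 2 sensors, IREB2 was higher in both knockdowns, with calls that depended on the processing and on single libraries, and ACO1 differed little. IREB2 (ENSG00000136381, chr15:78437431-78501456, plus strand) encodes the iron regulatory protein that is degraded when iron is plentiful. It was at 26.4 and 17.7 FPKM with siGYS1, 22.4 and 18.02 FPKM with sip53 and 16.7 and 14.2 FPKM with NC. Both knockdowns lay above both NC libraries, but siGYS1 replicate 1 was far above replicate 2. The log2 fold change was 0.48 (SE 0.13) for siGYS1 against NC and 0.40 (SE 0.13) for sip53 against NC, and both passed. The siGYS1 call was lost without siGYS1 replicate 1 (0.28), NC replicate 2 (0.36) or either sip53 library (0.48). The sip53 call was lost without sip53 replicate 1, sip53 replicate 2 or NC replicate 2, over a range of 0.28 to 0.53. With limma on log2(FPKM + 1) neither passed. ACO1 (ENSG00000122729, chr9:32384603-32454769, plus strand) encodes cytosolic aconitase, which becomes an iron regulatory protein when it lacks its cluster. It was at 65.9 and 64.1 FPKM with siGYS1, 61.0 and 60.9 FPKM with sip53 and 71.8 and 71.6 FPKM with NC. These FPKM did not overlap, yet the log2 fold changes against NC, -0.05 (SE 0.08) with siGYS1 and -0.12 (SE 0.08) with sip53, did not pass. With limma on log2(FPKM + 1) the sip53 value was -0.23 and passed. IREB2 was 0.401 and 0.277 times ACO1 with siGYS1, 0.368 and 0.296 times with sip53 and 0.233 and 0.198 times with NC.

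Counted over the 9 genes, 4 were past the threshold upward with siGYS1 against NC (FTH1, SLC11A2, HMOX1 and IREB2) and 1 downward (TFRC), where 10.4% and 9.24% of all tested genes were higher and lower and 19.7% were called in all. With sip53 against NC, 6 were past it upward (FTH1, NCOA4, SLC11A2, HMOX1, BLVRB and IREB2) and 0 downward, where 23.4% of all tested genes were higher, 26.5% lower and 49.9% called in all. The 6 became 3 without sip53 replicate 2. Between siGYS1 and sip53, 3 were lower (TFRC, HMOX1 and BLVRB) and 0 higher, where 22.5% of all tested genes were higher, 20.9% lower and 43.4% called in all. At a change of at least 2-fold, 2.38% of all tested genes passed with siGYS1 against NC, 12.5% with sip53 against NC and 9.67% between siGYS1 and sip53. The threshold is a Benjamini-Hochberg adjusted p below 0.05. The median log2 fold change of the 9 was 0.43 with siGYS1 against NC, 0.40 with sip53 against NC and -0.23 between siGYS1 and sip53, where that of all tested genes was -0.01, -0.03 and 0.01. Both comparisons against NC share the NC libraries, and the 9 were chosen on these values, so nothing is read from the counts.

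**Figure D3:**
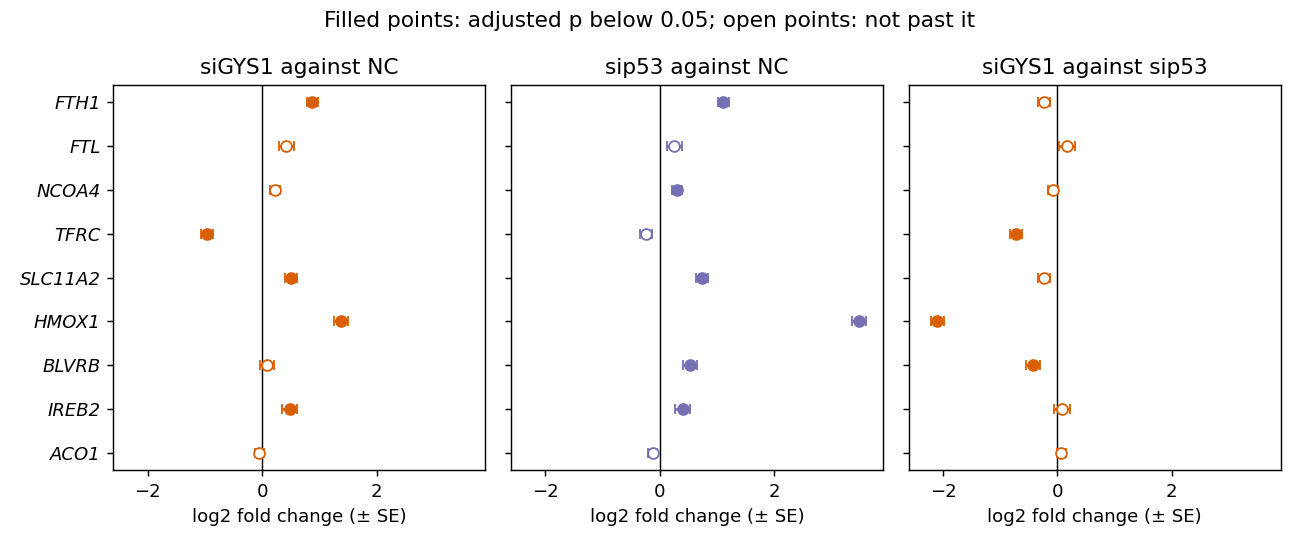
Log2 fold change (x axis) of the 9 genes in the 3 comparisons, from the edgeR fit of all 6 libraries, with bars of 1 SE and filled points past the adjusted p threshold. HMOX1 lies farthest from 0 in both comparisons with NC (1.38 for siGYS1, 3.48 for sip53) and TFRC is the gene past the threshold on the negative side with siGYS1 against NC (-0.96).

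Transcript length went with the spread between the siGYS1 libraries. In siGYS1 replicate 1 minus replicate 2, log2 CPM was -0.39 for FTL, -0.36 for BLVRB, -0.29 for FTH1 and -0.17 for HMOX1, whose annotated exons cover 878 to 2405 bases. It was 0.12 for NCOA4, 0.06 for ACO1, 0.18 for SLC11A2, 0.25 for TFRC and 0.37 for IREB2, whose exons cover 4079 to 10806 bases. The 4 short transcripts were thus lower in replicate 1 and the 5 long ones higher. With a length term removed from each library, the siGYS1 values against NC were 0.98 for FTH1, 0.56 for FTL, 1.48 for HMOX1, -1.03 for TFRC, 0.39 for SLC11A2 and 0.35 for IREB2. FTH1 read counts are fractional in the table. GENCODE 29 names 25 FTH1 pseudogenes and 16 FTL pseudogenes, none of which is in the table, so reads they share with the parent genes make those levels uncertain. FTH1 also overlaps BEST1 on the other strand, which was at 3.45 to 6.51 FPKM. No label or header states whether counting used strand, so reads of FTH1 and BEST1 cannot be told apart there.

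**Figure D4:**
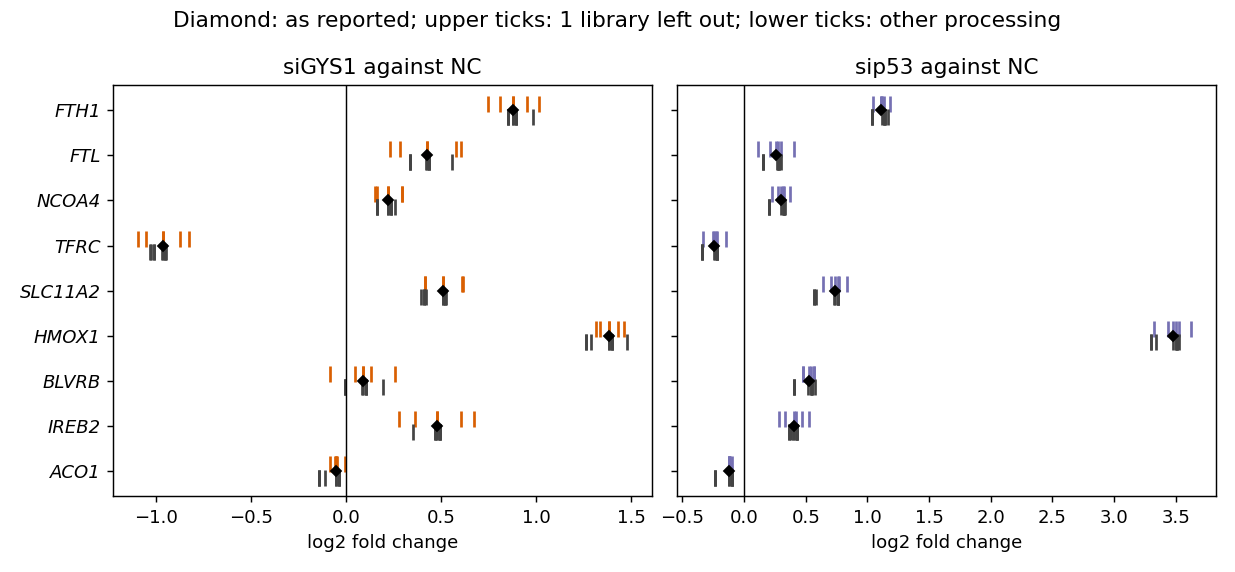
Log2 fold change (x axis) of the 9 genes (y axis) for siGYS1 against NC and sip53 against NC, with a diamond for the reported value, upper ticks for the 6 fits that leave out 1 library and lower ticks for other processing. With siGYS1, HMOX1 stays between 1.26 and 1.48 and TFRC between -1.09 and -0.83, while the range of BLVRB with siGYS1 crosses 0, from -0.085 to 0.26 over left-out libraries.

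The genes whose 6-library profile lay nearest to those of HMOX1, TFRC and FTH1 were found by the Euclidean distance of centred log2 CPM over 6 libraries, among 9505 protein-coding genes. For HMOX1 they were ACP5, an iron-containing acid phosphatase (distance 0.233), PPIF, mitochondrial cyclophilin D (0.256) and the chemokine gene CXCL8 (0.407). ACP5 was at 65.1 and 64.4 FPKM with siGYS1, 240 and 248 FPKM with sip53 and 18 and 16.6 FPKM with NC. For TFRC they were TTC7B (0.194), the fatty aldehyde dehydrogenase gene ALDH3A2 (0.244) and MCCC2, a subunit of the leucine-breakdown enzyme methylcrotonyl-CoA carboxylase (0.272). ALDH3A2 was at 14.3 and 14.0 FPKM with siGYS1, 23.4 and 21.0 FPKM with sip53 and 32.7 and 29.4 FPKM with NC. For FTH1 they were PWWP2B (0.169), the chromatin protein gene HMGA1 (0.188) and the sialyltransferase gene ST3GAL4 (0.229). HMGA1 was at 337 and 373 FPKM with siGYS1, 372 and 422 FPKM with sip53 and 199 and 209 FPKM with NC. These genes were picked for their likeness over the same 6 libraries, so a shared order of groups follows from the choice.

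Around the 9 genes, 7 lists of iron and heme genes hold 116 further genes, of which 114 are in the table and 99 were tested. With siGYS1 against NC, 11 of the 99 rose and 6 fell, or 17.2%, where 19.7% of all tested genes were called. With 1 library left out, the number of calls was 31 (siGYS1 replicate 2), 9 (either sip53 library), 11 (NC replicate 1) and 4 (NC replicate 2). With limma on log2(FPKM + 1) the split was 4 higher and 8 lower. With sip53 against NC, 34 rose and 19 fell, or 53.5%, where 49.9% of all tested genes were called. Between siGYS1 and sip53, 16 were higher and 34 lower with siGYS1, or 50.5%, where 43.4% of all tested genes were called, and without a sip53 library the split was 7 higher and 24 lower (replicate 1 left out) or 6 and 24 (replicate 2). These shares are near those of all tested genes, so the lists are described gene by gene. Every adjusted p below is from the edgeR fit of all tested genes.

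**Figure D5:**
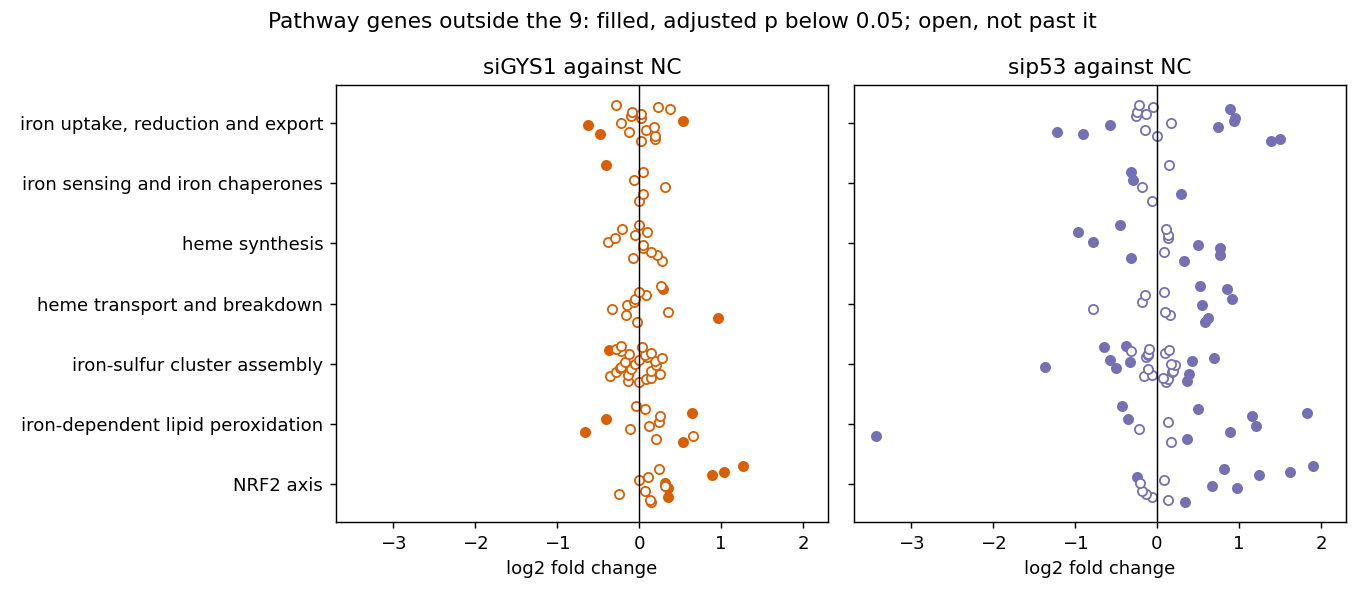
Log2 fold change (x axis) of each tested gene of 7 iron and heme lists (y axis) for siGYS1 against NC and sip53 against NC, with 1 point per gene, filled where the adjusted p is below 0.05. The NRF2 axis has 6 of 14 genes higher and 0 lower with siGYS1 (42.9% called, against 19.7% of all tested genes). Heme transport and breakdown has 6 of 12 higher and 0 lower with sip53 (50%, against 49.9%).

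Heme handling was followed beyond HMOX1 and BLVRB. Of 12 genes of heme transport and breakdown, 2 rose and 0 fell with siGYS1 (16.7% called, against 19.7% of all tested genes), and 6 rose and 0 fell with sip53 (50%, against 49.9%). BACH1, the repressor of HMOX1, was at 9.76 and 8.19 FPKM with siGYS1, 7.76 and 6.04 FPKM with sip53 and 4.98 and 4.68 FPKM with NC. It rose against NC with siGYS1 (log2 fold change 0.96, SE 0.13, adjusted p = 0.00135) and with sip53 (0.62, SE 0.13, adjusted p = 0.00333). POR, the reductase that feeds electrons to heme oxygenase, rose with sip53 (0.85, SE 0.09, adjusted p = 4.2e-05). With siGYS1 it rose by 0.30 (SE 0.09, adjusted p = 0.039), a call lost when any library other than siGYS1 replicate 1 was left out, and the list count became 1 without either sip53 library or either NC library. HMOX2 rose with sip53 (0.91, SE 0.13, adjusted p = 0.000341). Between siGYS1 and sip53, 0 of the 12 were higher and 6 lower with siGYS1 (50% called, against 43.4% of all tested genes). Of 12 genes of heme synthesis, 0 passed with siGYS1 against NC in edgeR, DESeq2 or limma, and 4 had an unadjusted p below 0.05 in edgeR. Without siGYS1 replicate 2, 3 genes of the list passed, and with length-corrected offsets 3 did. With sip53, 4 rose and 4 fell (66.7%, against 49.9% of all tested genes). ALAS1, the rate-limiting enzyme outside erythroid cells, rose (0.78, SE 0.09, adjusted p = 0.000105). TMEM14C, a mitochondrial porphyrinogen importer, fell (-0.96, SE 0.10, adjusted p = 5.92e-05). Without sip53 replicate 1 the list had 5 calls.

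Of 17 genes of iron uptake, reduction and export, 1 rose and 2 fell with siGYS1 (17.6% called, against 19.7% of all tested genes), and 6 rose and 3 fell with sip53 (52.9%, against 49.9%). The lipocalin-2 receptor gene SLC22A17 fell with siGYS1 (-0.63, SE 0.10, adjusted p = 0.00329), at 7.99 and 8.43 FPKM with siGYS1, against 12.8 and 14.4 FPKM with NC. HFE, whose product binds the transferrin receptor, also fell (-0.48, SE 0.11, adjusted p = 0.015), a call lost without NC replicate 1 or NC replicate 2. SLC25A37, the mitochondrial iron importer mitoferrin-1, rose (0.53, SE 0.11, adjusted p = 0.00986), a call lost without NC replicate 2, when the list has 1 call. With sip53 the ferroxidase gene CP rose (1.497, SE 0.16, adjusted p = 6.79e-05), at 2.49 and 2.55 FPKM with sip53 against 0.860 and 1.18 FPKM with NC. CD44, a hyaluronan receptor, was at 876 and 837 FPKM with sip53 and 359 and 324 FPKM with NC (1.39, SE 0.08, adjusted p = 1.2e-06). LCN2, which binds iron-carrying siderophores, fell with sip53 (-1.22, SE 0.26, adjusted p = 0.00379).

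Of 6 genes of iron sensing and chaperoning, 0 rose and 1 fell with siGYS1 (16.7% called, against 19.7% of all tested genes). That gene was SKP1, a subunit of the ubiquitin ligase that FBXL5 directs (-0.40, SE 0.09, adjusted p = 0.0176), and the call was lost without either sip53 library or NC replicate 2, while 2 genes passed without siGYS1 replicate 2. With sip53, 1 rose and 2 fell (50%, against 49.9% of all tested genes). FBXL5, the iron-sensing subunit that targets IREB2 for degradation, rose by 0.29 (SE 0.09, adjusted p = 0.0184). The iron chaperone genes PCBP2 (-0.32, SE 0.08, adjusted p = 0.00793) and PCBP1 (-0.29, SE 0.09, adjusted p = 0.0236) fell. All 3 calls were lost without sip53 replicate 1, sip53 replicate 2 or NC replicate 2, and that of FBXL5 also without NC replicate 1.

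Of 27 genes of iron-sulfur cluster assembly, 0 rose and 1 fell with siGYS1, the cysteine desulfurase gene NFS1 (-0.37, SE 0.09, adjusted p = 0.0235). That is 3.7% of the list, against 19.7% of all tested genes. The count was 0 without siGYS1 replicate 1, either sip53 library or NC replicate 2, and 7 without siGYS1 replicate 2. With sip53, 4 rose and 6 fell (37.0%, against 49.9% of all tested genes). FDXR, a ferredoxin reductase and a known p53 target, was at 13.9 and 15.3 FPKM with sip53 and 38.0 and 42.7 FPKM with NC (-1.36, SE 0.12, adjusted p = 1.65e-05). ISCA1, a late assembly factor, rose (0.70, SE 0.09, adjusted p = 0.000131). NUBP1, a cytosolic assembly scaffold, fell (-0.64, SE 0.15, adjusted p = 0.00639), a call lost without sip53 replicate 2 or NC replicate 2. The 10 calls of the list became 5 without sip53 replicate 1 and 6 without sip53 replicate 2, NC replicate 1 or NC replicate 2.

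Of 12 genes of iron-dependent lipid peroxidation, 6 rose and 3 fell with sip53 (75.0% called, against 49.9% of all tested genes), and 5 passed without sip53 replicate 1. SLC7A11, the cystine import subunit, was at 2.95 and 2.50 FPKM with sip53 and 0.910 and 0.730 FPKM with NC (1.83, SE 0.16, adjusted p = 2.08e-05). Its partner SLC3A2 (1.16, SE 0.10, adjusted p = 1.98e-05) and the tetrahydrobiopterin enzyme gene GCH1 (1.21, SE 0.13, adjusted p = 6.03e-05) also rose. The point farthest to the left in the plot of the lists is the lipoxygenase gene ALOX5, chosen after its values were seen, at 0 and 0.03 FPKM with sip53 and 0.2 and 0.15 FPKM with NC. With siGYS1, 2 rose and 2 fell (33.3%, against 19.7% of all tested genes). ACSL4, which loads polyunsaturated fatty acids onto coenzyme A, rose (0.54, SE 0.13, adjusted p = 0.0194), and so did SLC7A11 (0.64, SE 0.17, adjusted p = 0.03). CHAC1, a glutathione-degrading enzyme (-0.66, SE 0.19, adjusted p = 0.0346), and LPCAT3, a lysophospholipid acyltransferase chosen after its values were seen (-0.40, SE 0.09, adjusted p = 0.0138), fell. The list had 2 calls without either sip53 library and 0 without NC replicate 2. The call of CHAC1 was lost when any library other than siGYS1 replicate 2 was left out, and that of SLC7A11 without siGYS1 replicate 1, either sip53 library or NC replicate 2.

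Of 14 genes of the NRF2 axis, 6 rose and 0 fell with siGYS1 (42.9% called, against 19.7% of all tested genes), and 7 rose and 1 fell with sip53 (57.1%, against 49.9%). The siGYS1 count was 3 without NC replicate 1 or either sip53 library and 2 without NC replicate 2. TXNRD1, thioredoxin reductase, was at 142 and 113 FPKM with siGYS1, 196 and 162 FPKM with sip53 and 56.4 and 46.9 FPKM with NC. It rose against NC with siGYS1 (1.27, SE 0.10, adjusted p = 8.71e-05) and with sip53 (1.90, SE 0.10, adjusted p = 1.07e-06). SQSTM1, the autophagy receptor p62, rose with siGYS1 (1.03, SE 0.09, adjusted p = 0.000117) and with sip53 (1.62, SE 0.09, adjusted p = 1.17e-06). OSGIN1 rose with siGYS1 (0.89, SE 0.22, adjusted p = 0.0205), a call lost without NC replicate 2, and with sip53 (1.25, SE 0.21, adjusted p = 0.000965). The group order differed within the list. TXNRD1 and SQSTM1 were highest with sip53, whereas by FPKM NQO1, ME1 and GCLM, chosen after their values were seen, were lowest with sip53. The quinone reductase gene NQO1 was the 1 that fell with sip53, at 510 and 568 FPKM with siGYS1, 420 and 406 FPKM with sip53 and 526 and 580 FPKM with NC (-0.24, SE 0.09, adjusted p = 0.0407, sip53 against NC). The malic enzyme gene ME1 averaged 28.6 FPKM with siGYS1, 19.4 FPKM with sip53 and 23.9 FPKM with NC. GCLM, a subunit of the glutathione synthesis enzyme, averaged 19.0 FPKM with siGYS1, 14.1 FPKM with sip53 and 16.04 FPKM with NC. With sip53 against NC, neither ME1 (-0.20, SE 0.09, adjusted p = 0.101) nor GCLM (-0.06, SE 0.09, adjusted p = 0.626) passed. Between siGYS1 and sip53 both passed, higher with siGYS1 (0.52 for ME1 and 0.41 for GCLM).

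Promoter windows of RefSeq (GRCh38.p14, 250 bases before to 50 after a start) were found for 7 of the 9 genes, 12 windows in all. FTH1 and HMOX1 have none in that table. The motif TGACNNNGC, the core of the antioxidant response element, was searched on both strands and stood in 1 of the 12 windows (NCOA4) and in 13.3% of all 35116 windows. The motif ACGTG, the core of the hypoxia response element, stood in 2 of the 12 windows (FTL and TFRC) and in 21.4% of all windows. Sequence outside these windows was not searched, so a gene without a match may still hold either motif farther from its start. For FTH1 and HMOX1 no sequence was searched.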

How the data were processed

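FPKM and read counts were taken from the deposited table, as named per the file headers, and the FPKM are the authors' own. The read counts deposited by the authors are expected counts, not normalized: 16.8% to 18.1% of them per library are not whole numbers. Another 24 value columns were not used. The submitters' processing notes name several aligners and counters (STAR, HISAT2 and TopHat; HTSeq, featureCounts and Salmon) with no version or role. They also name the build mm10, a mouse genome, whereas the gene identifiers are human: 16830 of 16910 are in GENCODE 29. Per the labels' protocols, poly(A) RNA was selected.

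Counts were rounded to whole numbers. The test was the quasi-likelihood test of edgeR 4.0.16 under R 4.3.3, after filterByExpr (minimum count 10) and TMM scaling, all 6 libraries in 1 fit with group as its term (3 residual degrees of freedom). This left 13235 genes and removed 3675. P-values were Benjamini-Hochberg adjusted over all genes tested, and each SE was obtained by dividing the size of the log2 fold change by the root of its F statistic. Mitochondrial transcripts take 4.81% to 6.00% of reads. Alternatives were other size factors, DESeq2 1.42.0, limma 3.58.1 on log2(FPKM + 1) and log2(FPKM + 0.1), no filter, only the groups compared, a replicate block, length-corrected offsets and leaving out each library.

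The 9 genes, the lists and the tests were chosen with earlier results of these data known. From each list and comparison with NC, up to 3 called genes with the largest change and a mean of at least 1 FPKM are named, or the 1 with the smallest p where none was called; for the profiles, the 3 nearest genes with a mean of at least 5 FPKM. The transcript targeted in the sip53 libraries and a few genes this selection would name are not reported here.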

Additional observations from a re-analysis of the deposited data

How the results depend on the processing

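With 2 libraries a group and 3 residual degrees of freedom, single libraries set many calls. Of 405 refits of the 9 genes (27 values under 15 alternatives), 330 kept direction and side of the threshold, 68 changed the call and 7 changed sign. Of 525 refits of the named pathway genes, 454 kept both, 71 changed the call and 0 changed sign. The value of BLVRB, siGYS1 against NC, was 0.09 and became -0.0026 with limma on log2(FPKM + 1), with or without the filter, -0.0028 with log2(FPKM + 0.1) and -0.085 without siGYS1 replicate 2 (leave-one-out range -0.085 to 0.26). FTL with siGYS1 against sip53 was 0.17 and became -0.042 without siGYS1 replicate 2 (range -0.042 to 0.35). IREB2 with siGYS1 against sip53 was 0.08 and became -0.046 with length-corrected offsets and -0.12 without siGYS1 replicate 1 (range -0.12 to 0.25). The call of FTH1 with siGYS1 was lost with limma on FPKM and with no left-out library.

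Of all genes, 2602 were called with siGYS1 against NC (1379 higher, 1223 lower), 1577 with only the 2 groups compared, 941 with limma and no filter, and 926 to 4260 with 1 library left out. The split was 1398 higher and 799 lower with DESeq2 and 619 and 1184 with limma. With sip53 against NC, 6605 were called (3103 higher, 3502 lower; limma 2056 and 3716), and 4271 to 7621 with 1 library left out. Between siGYS1 and sip53 the count was 5745, and 3416 to 6337 with 1 left out. Of the 99 pathway genes, 17 were called with siGYS1 against NC, 9 with only the 2 groups compared, 28 with length-corrected offsets, 6 with limma and no filter, and 4 to 31 with 1 library left out. With sip53 the count was 53 and ran from 36 to 55, and between siGYS1 and sip53 it was 50 and ran from 30 to 58. The cause of these moves was not tested.

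The labels number the replicates 1 and 2 in each group. Deviations of same-numbered libraries correlated at 0.59 between siGYS1 and NC, 0.27 between siGYS1 and sip53 and 0.12 between sip53 and NC, with 2 numbers behind each value; the labels do not say that a number marks a shared culture or day. With a replicate block, 4662 genes and 36 pathway genes were called with siGYS1 against NC, 7890 genes with sip53 against NC and 7202 between siGYS1 and sip53. With the block the threshold was also passed by FTL (0.42) and NCOA4 (0.22) with siGYS1 against NC, by FTL (0.27) and TFRC (-0.24) with sip53 against NC, by FTH1 (-0.24) and SLC11A2 (-0.23) between siGYS1 and sip53, and by 4 genes of heme synthesis with siGYS1 against NC.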
